A study of Mus musculus with 44 samples.

Results

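Fatty acid oxidation and ketone body genes were followed in RNA-seq of mouse organoids as a set of 29 named genes, taken by symbol from the 19733 gene rows of 1 count table. All 29 have a row, and 28 passed the filter on low counts in each experiment. Cpt1b, the muscle form of carnitine palmitoyltransferase 1, did not: it had 0 to 7 counts in a library. The 28 that passed are called the tested members.

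The study asked how the intestinal transcription factors CDX2 and HNF4A and a Cdx2 enhancer act in stomach epithelium, and 20 of its 44 samples are RNA-seq libraries. All organoids with a strain label are C57BL/6. In the first experiment gastric organoids carried lentiviral CDX2 (3 libraries), lentiviral HNF4A (3 libraries) or lentiviral GFP, a neutral protein (3 libraries), and 2 libraries came from small intestine organoids. The second experiment used stomach antrum organoids that all overexpressed HNF4A. They carried 0, 1 or 2 copies of a germline CRISPR-Cas9 deletion that removes an enhancer lying 3' of Cdx2, and are called wild type, heterozygous and homozygous (3 libraries each). The labels do not name the promoters of the transgenes, the number of mice or whether a line is 1 clone.

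Mitochondrial oxidation shortens fatty acids by pairs of carbons. Acyl-CoA synthetases (Acsl1, Acsl5) activate the acid, the carnitine shuttle (Cpt1a, Cpt1b, Cpt2, Slc25a20, Crat) carries it into the mitochondrion, and acyl-CoA dehydrogenases, a hydratase, a 3-hydroxyacyl-CoA dehydrogenase and a thiolase take the chain apart while electron transfer flavoprotein passes the electrons on. Peroxisomes hold a parallel pathway, and ketogenesis turns the product acetyl-CoA into acetoacetate and 3-hydroxybutyrate. In the intestine the pathway is known as a target of PPAR and HNF4 nuclear receptors.

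Levels are in CPM, read counts scaled to a common library total with TMM factors within each experiment, and are given for libraries 1, 2 and 3 (1 and 2 for small intestine). No gene lengths were used, so levels are compared between libraries and never between genes. A gene is called where edgeR's quasi-likelihood test gave a Benjamini-Hochberg adjusted p under 0.05 over all genes tested in that experiment. Libraries held 6180498 to 11007809 counts in the first experiment and 8173640 to 11465309 in the second. Cdx2 ran from 62.0 to 288 CPM in CDX2 lines against 3.19 to 7.44 in GFP lines and 0.199 to 1.36 in homozygous organoids against 16.7 to 58.5 in wild type. Hnf4a ran from 289 to 502 CPM in HNF4A lines against 95.7 to 158 in GFP lines; reads of a transgene and of the endogenous gene cannot be told apart. The summed level of 12 gastric markers was 781 to 16025 CPM in the gastric lines and 1.86 and 116 CPM in the small intestine libraries. The summed level of 8 fat cell markers was 20.3 to 74.8 CPM, highest in heterozygous library 3. Of these Lipe, a lipase, had 15.7 CPM or more in every library, Fabp4 reached 48.0 CPM with the enhancer deletion against at most 0.127 CPM in wild type, and the defining markers Adipoq and Plin1 had at most 0.158 CPM in any library.

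Bdh1, which encodes the mitochondrial 3-hydroxybutyrate dehydrogenase that interconverts both ketone bodies, had the greatest rise of the members from GFP lines to small intestine (chromosome 16 at 31422297 to 31458901 in GRCm38.p6). Ehhadh, the peroxisomal bifunctional enzyme that hydrates and oxidises the shortened chain, differed most between HNF4A and GFP lines among the peroxisomal members (chromosome 16 at 21761285 to 21787834). Acadl, long-chain acyl-CoA dehydrogenase, was lower in small intestine (chromosome 1 at 66830839 to 66863309). Hadha and Hadhb, the alpha and beta subunits of the mitochondrial trifunctional protein, are read in opposite directions from starts 273 bases apart on chromosome 5. The 250 bases before the RefSeq start of each are printed here in GRCm38.p6, 5′ to 3′ on the strand of the gene, because the groups differ in the first 3 and the last lies wholly between the starts of a gene pair whose levels differed little. For Bdh1 the first of its RefSeq starts was used, and the bases before the second, at 31428753, are not printed. Which start these organoids use was not tested. Capitals mark the only match among the searched motifs in the printed stretches.
Bdh1, chr16:31422047-31422296, plus strand: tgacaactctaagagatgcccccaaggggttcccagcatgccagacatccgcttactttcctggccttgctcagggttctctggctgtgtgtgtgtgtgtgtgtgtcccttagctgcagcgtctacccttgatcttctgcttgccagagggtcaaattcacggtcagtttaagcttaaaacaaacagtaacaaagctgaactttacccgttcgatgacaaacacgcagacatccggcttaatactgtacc
Ehhadh, chr16:21787835-21788084, minus strand: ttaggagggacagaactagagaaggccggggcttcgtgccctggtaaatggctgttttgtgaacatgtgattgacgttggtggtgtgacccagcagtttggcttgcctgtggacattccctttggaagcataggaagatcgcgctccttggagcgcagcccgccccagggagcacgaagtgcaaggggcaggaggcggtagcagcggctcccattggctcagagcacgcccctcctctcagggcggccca
Acadl, chr1:66863310-66863559, minus strand: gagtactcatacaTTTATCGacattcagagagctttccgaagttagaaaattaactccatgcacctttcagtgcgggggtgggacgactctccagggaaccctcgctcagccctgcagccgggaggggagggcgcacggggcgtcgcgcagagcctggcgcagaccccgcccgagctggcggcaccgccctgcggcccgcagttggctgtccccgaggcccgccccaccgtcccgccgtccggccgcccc
Hadhb, chr5:30155003-30155252, plus strand: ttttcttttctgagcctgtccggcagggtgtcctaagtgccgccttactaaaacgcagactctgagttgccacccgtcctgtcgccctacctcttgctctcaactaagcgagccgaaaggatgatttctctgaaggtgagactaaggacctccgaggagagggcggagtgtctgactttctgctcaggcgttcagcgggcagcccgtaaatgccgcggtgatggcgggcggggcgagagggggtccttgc

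RefSeq windows of 250 bases before to 50 after a start were found for 24 of the 29 members, 26 windows in all, since Bdh1 and Acsl1 have a second start. Both strands were searched for 4 motifs spelled out here: CAAAGTCCA (HNF4 type), CAAAGGTCA (core of the PPAR type), TCAAGGTCA (estrogen-related receptor type) and TTTATNG (CDX type). The first pair begin with the same letters, and no matches overlapped. The first 3 occurred in 0 of the 26 member windows, and in 0.475%, 0.478% and 0.423% of all 32851 windows. TTTATNG occurred in 10.9% of all windows and in 2 member windows, of Acadl and of Eci1, an isomerase that moves the double bond of unsaturated chains. In Acadl the match lies 237 to 231 bases before the start, given as -237 and -231. These are letter matches in short windows and say nothing about binding elsewhere.

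Small intestine organoids differed from the GFP gastric lines in 9 of the 28 tested members. Of these 6 rose, which are Bdh1, Acsl5, Acsl1, Ehhadh, Hadh and Ppara, and 3 fell, which are Acadl, Hsd17b4 and Pdk4. Over all 12720 genes tested, 27.1% were called, 14.2% higher and 12.9% lower, so the 9 members (6 and 3) lie close to the share of the whole table. The members' median log2 fold change was 0.06 and that of all genes -0.01. Only 2 small intestine libraries exist and they carry weight: 3 members were called without small intestine library 1, 5 without small intestine library 2 and 5 without GFP library 2. A fit of only the 2 groups called 5 members. For Acsl1, Acadl, Hadh, Ppara and Pdk4 the losses named below are only those from leaving out libraries. The calls for Bdh1 and Acsl5 held in all 11 alternatives.

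Bdh1 stood at 39.7, 60.2 and 24.6 CPM in GFP lines and at 203 and 390.2 CPM in small intestine. Both intestinal libraries lay above every gastric library of any line. The fitted difference was 7.14-fold (log2 2.84 ± 0.47 SE, adjusted p = 0.00379).

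Fatty acid activation was the role in which both members rose. Acsl5, an acyl-CoA synthetase of the intestinal epithelium, stood at 227, 169 and 162 CPM in GFP lines and at 566 and 426 CPM in small intestine (2.67-fold, log2 1.42 ± 0.24, adjusted p = 0.00409). Acsl1, its paralog, stood at 42.7, 30.8 and 44.2 CPM in GFP lines and at 63.0 and 75.3 CPM in small intestine (1.76-fold, log2 0.82 ± 0.20, adjusted p = 0.0174). Neither pair of groups overlapped. Acsl1 was not called without small intestine library 1 (or 2), or without GFP library 2.

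The carnitine shuttle held no call, with log2 fold changes of -0.38 to 0.18 over its 4 tested members. Cpt1a, the rate-limiting step of the shuttle, had 84.2, 95.5 and 117 CPM in GFP lines and 54.4 and 116 CPM in small intestine. Small intestine library 1 lay below the GFP range and library 2 inside it, and the difference was -0.21 ± 0.37 (adjusted p = 0.693). Cpt2, which releases the acyl-CoA inside the mitochondrion, had 47.0, 65.3 and 50.3 CPM against 48.5 and 74.7 CPM (log2 0.18 ± 0.28, adjusted p = 0.645).

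Among the 4 acyl-CoA dehydrogenases, which differ in the chain length they take, 1 fell. Acadl had 209, 188 and 120.4 CPM in GFP lines and 74.7 and 105 CPM in small intestine (log2 -0.94 ± 0.25, adjusted p = 0.0231). The groups did not overlap, but GFP library 3 lay near the intestinal level, and the call was lost without small intestine library 1 and without GFP library 1 (or 2). Acadm, the medium-chain enzyme, had 62.5, 67.5 and 58.3 CPM against 76.3 and 65.4 CPM, and its difference of 0.17 ± 0.18 was not called (adjusted p = 0.489). Acads, the short-chain enzyme, lay higher in small intestine without overlap and was not called (log2 0.48 ± 0.21, adjusted p = 0.109), and Acadvl, the very-long-chain enzyme, overlapped (log2 -0.32 ± 0.18, adjusted p = 0.204).

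In the hydration, oxidation and thiolysis steps only Hadh, the short-chain 3-hydroxyacyl-CoA dehydrogenase, was called. It had 112, 134 and 95.4 CPM in GFP lines and 183 CPM in both small intestine libraries (1.61-fold, log2 0.69 ± 0.19, adjusted p = 0.0247). The call was lost without small intestine library 1 (or 2) and without GFP library 1 (or 3). The other 4, Hadha, Hadhb, Echs1 and Acaa2, lay between -0.24 and 0.32 on the log2 scale. Hadha had 185, 225 and 282 CPM in GFP lines and 167 and 222 CPM in small intestine, with overlapping groups (log2 -0.24 ± 0.22, adjusted p = 0.431). The isomerases and the reductase for unsaturated chains (Eci1, Eci2, Decr1) and the electron transfer genes (Etfa, Etfb, Etfdh) held no call, with log2 values of -0.34 to 0.35 and of -0.15 to 0.31.

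The peroxisomal members moved in opposite directions. Ehhadh had 12.4, 17.1 and 10.8 CPM in GFP lines and 27.7 and 43.6 CPM in small intestine (2.65-fold, log2 1.40 ± 0.28, adjusted p = 0.00724). Hsd17b4, the other multifunctional enzyme of the peroxisome, had 201, 212 and 248 CPM in GFP lines and 106 and 127 CPM in small intestine (log2 -0.91 ± 0.16, adjusted p = 0.00465). Neither pair of groups overlapped. Ehhadh lost its call only without small intestine library 2 and Hsd17b4 only without small intestine library 1, among the 11 alternatives. Acaa1b, a peroxisomal thiolase, had 0.735 to 4.47 CPM in GFP lines and 0.652 and 3.62 CPM in small intestine, and it shares sequence with Acaa1a, so its reads may be divided between them.

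Of the regulators Ppara and Pdk4 were called. Ppara, the nuclear receptor that switches on oxidation genes in fasting, had 1.28, 1.81 and 4.53 CPM in GFP lines and 5.78 and 17.3 CPM in small intestine (4.55-fold, log2 2.18 ± 0.72, adjusted p = 0.0467). The groups did not overlap, and the call was lost without small intestine library 1 (or 2) and without GFP library 1 (or 2). Pdk4, the kinase that shuts pyruvate dehydrogenase when fat is burned, fell: it had 2 counts over both small intestine libraries and 48 over the GFP lines, a scaled count ratio of 0.0551 (95% counting interval 0.00648 to 0.210; adjusted p = 0.0257). The Pdk4 call was lost without small intestine library 1 and without GFP library 2. Ppargc1a, a coactivator of oxidation genes, had 24.2, 33.6 and 32.8 CPM in GFP lines and 16.4 and 11.2 CPM in small intestine; the groups did not overlap and the difference was not called (log2 -1.13 ± 0.52, adjusted p = 0.130).

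**Figure D1:**
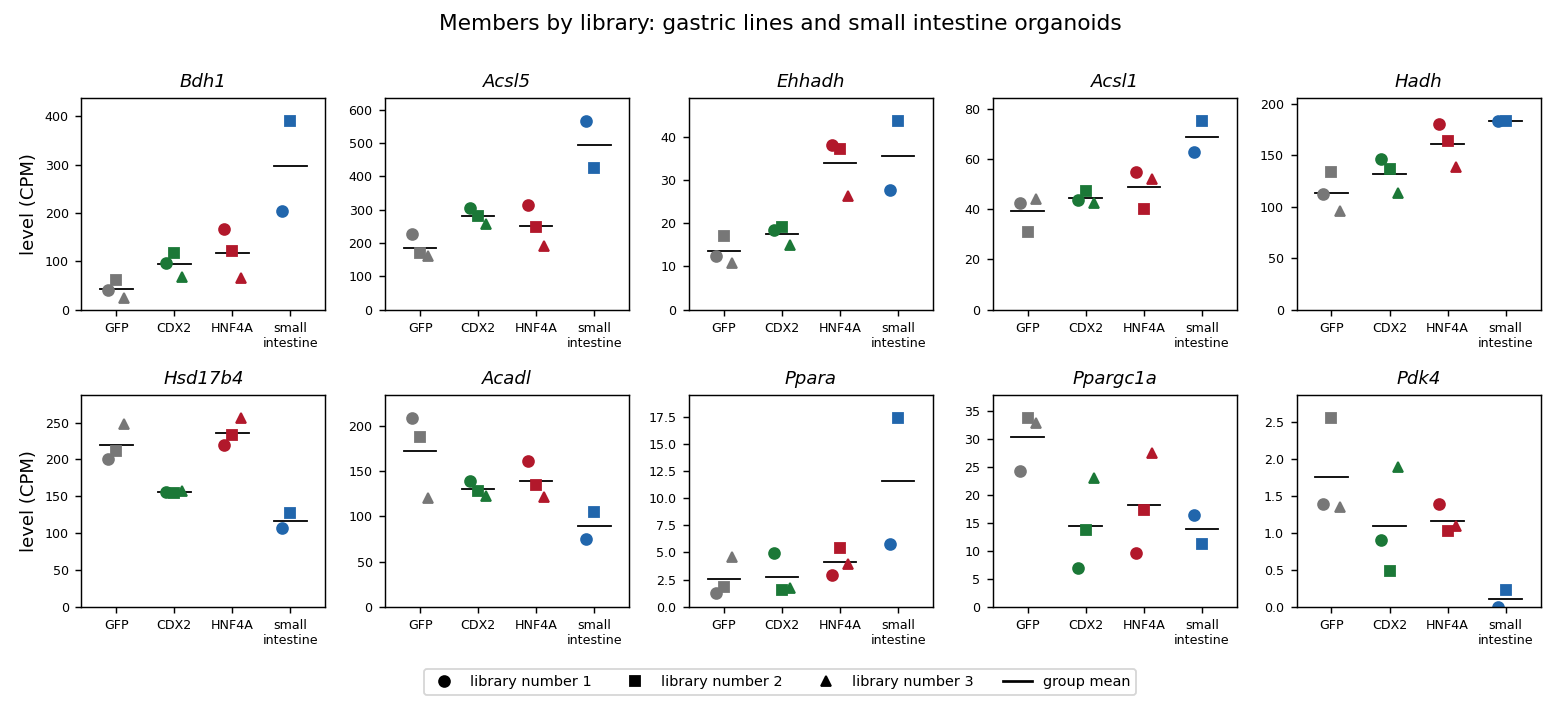
Level in CPM (vertical axes, linear from 0) of 10 members in each library of the first experiment; symbols give the library number and horizontal lines the group mean. Bdh1 and Acsl5 in both small intestine libraries lie above every gastric library, Hsd17b4 lies lower in CDX2 lines (154 to 157) than in GFP lines (201 to 248), and Pdk4 is near 0 in small intestine.

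These small intestine libraries also differed from the GFP lines in cell type markers. The summed level of 15 enterocyte markers was 1927 and 2657 CPM against 510.2 to 765 CPM, with 12 of 14 tested genes higher, and that of 7 proliferation genes was 1609 and 2112 CPM against 506 to 812 CPM, with 5 of 7 higher. Fewer cells of a type and less RNA per cell cannot be told apart in bulk libraries. The part of cell composition in the members' differences was not tested.

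The other genes of the pathway were taken from lists of 117 genes, of which 104 were tested against GFP lines; 19 rose and 15 fell, beside 14.2% and 12.9% of all genes. The count was 7 without small intestine library 1, 22 without small intestine library 2 and 20 without GFP library 2. Of the 6 tested genes of ketone body synthesis and use, 2 rose and 2 fell. Oxct1, which activates ketone bodies for use as fuel, had 59.4, 97.2 and 69.1 CPM in GFP lines and 415 and 294 CPM in small intestine, and it rose in the main test and in all 11 alternatives (log2 2.24 ± 0.32, adjusted p = 0.00216). Oxct1 was chosen for its values.

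Of 16 other peroxisomal genes tested, 2 rose and 5 fell, and Acaa1a, the main peroxisomal thiolase gene, was among those that fell (132, 141 and 110.0 CPM against 64.9 and 81.8 CPM, log2 -0.80 ± 0.16, adjusted p = 0.00801). Of 15 PPAR partners and related regulators tested, 3 rose and 2 fell. Esrra, the estrogen-related receptor alpha that acts with PGC-1 alpha, rose (log2 0.73 ± 0.18, adjusted p = 0.0164). Ppard and Pparg, the other PPAR receptors, did not pass the test (log2 0.25 ± 0.30 and 0.37 ± 0.70, adjusted p = 0.554 and 0.718). The called genes with the greatest log2 differences were Fabp2, the intestinal fatty acid binding protein, Creb3l3, a liver and gut transcription factor of lipid metabolism, and Slc16a7, a monocarboxylate transporter. Fabp2 had 218 counts against 2 in the GFP lines (ratio 144, counting interval 39.4 to 1197) and Creb3l3 88 against 2 (ratio 58.2, interval 15.6 to 488). Slc16a7 had 5 counts against 309 (log2 -5.46 ± 1.58, adjusted p = 0.0300).

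The CDX2 lines were compared with the GFP lines to see which members moved toward the intestinal level with lentiviral CDX2. Each factor line also had more of the other factor. Hnf4a had a mean of 275 CPM in CDX2 lines against 129 in GFP lines. Cdx2 had a mean of 34.1 CPM in HNF4A lines against 4.86 in GFP lines. Neither pair of groups overlapped and neither difference was called. The separate parts of the factors were not tested. No member was called in the edgeR fit without a block, where 52 of 12720 genes passed (0.409%). Its unadjusted p was under 0.05 for 4 members and for 1430 genes. DESeq2 called 1 member and 493 genes, and limma-voom 0 members and 4 genes. Libraries with the same number moved together across the gastric lines, and with line number as a block in the 9 gastric libraries 4 of 28 members were called, against 9.67% of 12289 genes. Of these Bdh1 and Acsl5 rose, and Hsd17b4 and Ppargc1a fell. The 15 enterocyte markers summed to 1191 to 2435 CPM in CDX2 lines and 1799 to 2316 CPM in HNF4A lines, against 510.2 to 765 CPM in GFP lines. Not all of them rose. Cdh17 had means of 470 CPM in CDX2, 103 in HNF4A and 3.24 in GFP lines. Apob had means of 59.1, 816 and 62.8 CPM in the same order, and Anpep 199, 185 and 200 CPM. The 12 gastric markers summed to 781 to 3849 CPM in CDX2, 3337 to 11532 in HNF4A and 5444 to 16025 in GFP lines. Muc6 and Gkn3 weigh most in this sum, with means of 4233 and 3884 CPM in GFP lines and 2114 and 2345 CPM in HNF4A lines. Others went the other way in HNF4A lines: Tff1 had a mean of 139 CPM against 39.4 in GFP lines, and Pgc 300 against 134. The part of enterocyte and gastric markers in the members' differences was not tested.

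Bdh1 had 95.9, 118 and 67.8 CPM in CDX2 lines, each above the highest GFP library (60.2). The blocked difference was 2.33-fold (log2 1.22 ± 0.21, adjusted p = 0.0128), and without the block it was 1.18 ± 0.42 (adjusted p = 0.312). Acsl5 had 304, 281 and 257 CPM, also above every GFP library, with a blocked difference of 1.53-fold (log2 0.61 ± 0.12, adjusted p = 0.0176) against 0.59 ± 0.22 without the block (adjusted p = 0.326).

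Hsd17b4 had 155, 154 and 157 CPM in CDX2 lines, the tightest group of the experiment for this gene, below all GFP libraries. The blocked difference was -0.50 ± 0.10 (adjusted p = 0.0194), and the unblocked -0.50 ± 0.14 (adjusted p = 0.177). Ppargc1a had 6.94, 13.6 and 22.9 CPM, each below its GFP library of the same number, with a blocked difference of -1.21 ± 0.24 (adjusted p = 0.0204) and an unblocked one of -1.07 ± 0.46 (adjusted p = 0.408). These blocked calls rest on 3 numbered lines: with number 1, 2 or 3 left out of all gastric groups, 1, 1 and 3 members were called, Bdh1 in the first 2 cases and Acsl5, Acadl and Ppargc1a in the last.

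No gene of the shuttle, the dehydrogenases or hydration to thiolysis was called with CDX2, with or without the block, in all 9 gastric libraries, though the differences of Slc25a20, the carnitine carrier, and Acaa2, a thiolase, were near that of Acsl5 in size. The 4 tested genes of the carnitine shuttle had log2 fold changes of 0.01 to 0.59, the 5 genes of hydration to thiolysis 0.04 to 0.54 and the 4 dehydrogenases -0.40 to 0.39. Cpt1a had 168, 86.9 and 156 CPM in CDX2 lines (log2 0.47 ± 0.33, adjusted p = 0.685), and Hadha had 246, 223 and 242 CPM (log2 0.04 ± 0.20, adjusted p = 0.968). Both groups overlapped with GFP. Over the 28 members 21 log2 values were above 0 and 7 below, while 49.6% of all genes were below 0. The members' median was 0.19, against 0.00289 over all genes. Between libraries of a group the members' median log2 level had a pooled SD of 0.194, near the size of this difference. On leaving out libraries the median ran from 0.027 to 0.276. Members that vary together are not independent, so the count of signs carries no test.

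The HNF4A lines gave a similar count. No member was called without the block, where 18 of 12720 genes passed (0.142%). The unadjusted edgeR p was under 0.05 for 4 members and for 733 genes. DESeq2 called 2 members and 221 genes, and limma-voom 0 members and 5 genes. With line number as a block 2 of 28 members, Bdh1 and Ehhadh, were called and both rose, against 2.24% of 12289 genes. This comparison and the one above share the GFP libraries.

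Ehhadh had 38.1, 37.1 and 26.3 CPM in HNF4A lines, and the lowest of them lay above the highest GFP library (17.1). The blocked difference was 2.53-fold (log2 1.34 ± 0.15, adjusted p = 0.00703), and the unblocked one 1.33 ± 0.26 (adjusted p = 0.101). Its level in HNF4A lines lay within the range of the small intestine libraries (27.7 and 43.6) apart from library 3, and the difference of small intestine from HNF4A lines was 0.07 on the log2 scale. DESeq2 also called Ehhadh and Bdh1.

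Bdh1 had 167, 120.3 and 66.0 CPM in HNF4A lines, all above GFP, with a blocked difference of 2.85-fold (log2 1.51 ± 0.21, adjusted p = 0.0159) and an unblocked one of 1.50 ± 0.42 (adjusted p = 0.339). The range within HNF4A lines was wide, since library 1 lay above library 3 by more than the whole GFP group spans. With number 1 or 2 left out of all gastric groups the blocked fit called 0 members, and with number 3 left out it called Ehhadh. Among the core genes, Cpt1a had 143, 90.3 and 144 CPM, Cpt2 82.1, 76.0 and 49.4 CPM and Hadha 206, 221 and 281 CPM in HNF4A lines, and all 3 groups overlapped with GFP. Ppara had 2.90, 5.44 and 3.95 CPM in HNF4A lines and 4.93, 1.57 and 1.74 CPM in CDX2 lines, overlapping GFP in both.

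**Figure D2:**
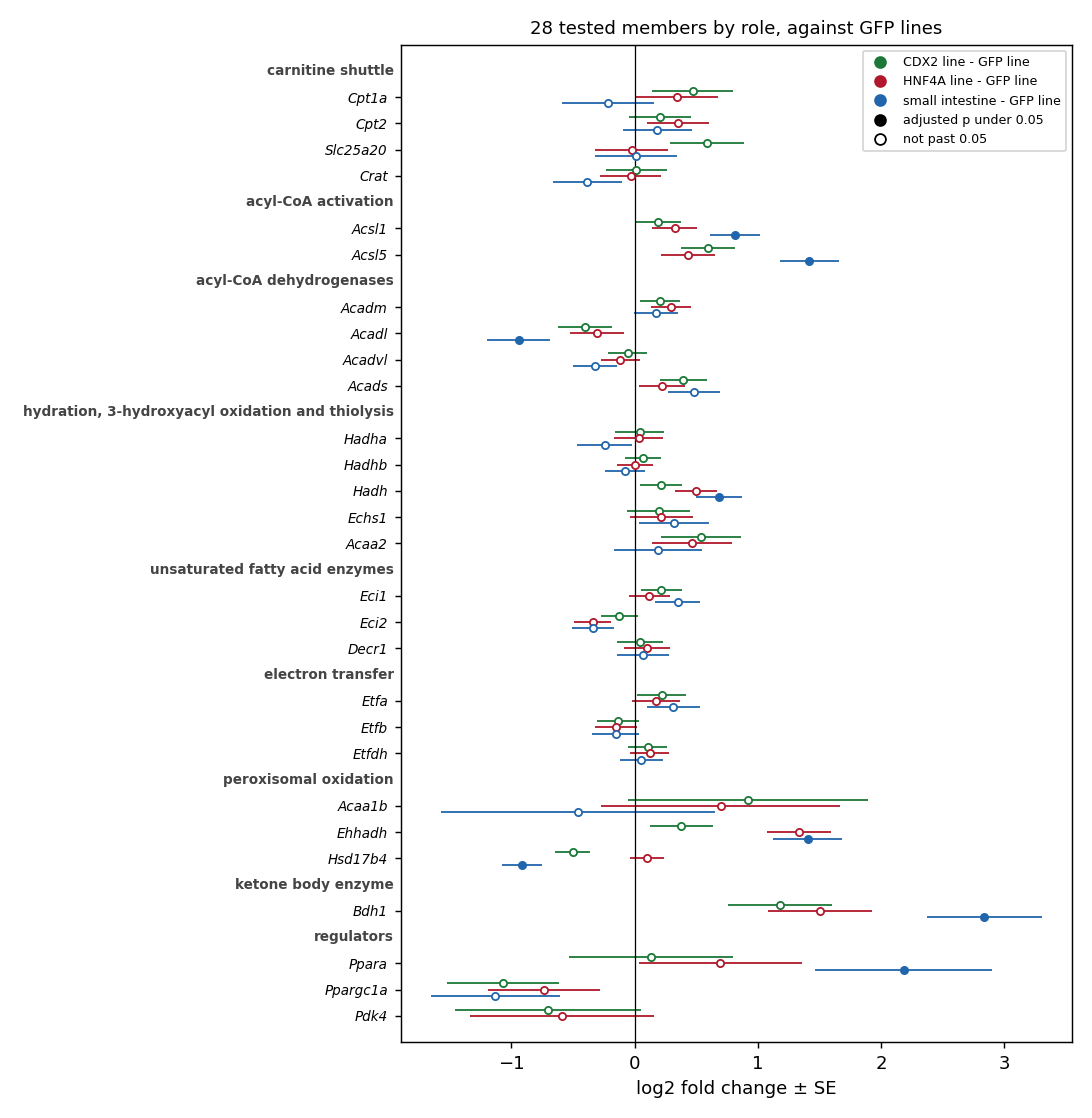
Log2 fold change ± SE (horizontal axis) against the GFP lines of the 28 tested members, grouped by role, in the fit without a block; filled points have an adjusted p under 0.05. Filled points occur in the small intestine comparison only, and Pdk4 is left out of that comparison because small intestine had 2 counts; the 3 comparisons share the GFP libraries.

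CDX2 and HNF4A lines were also compared with each other. Without the block 0 members were called by edgeR, where 3 genes passed (0.0236%). Its unadjusted p was under 0.05 for 2 members and for 659 of 12720 genes. DESeq2 called 1 member and 139 genes, and limma-voom 0 members and 2 genes. With the block 2 members were called against 1.38% of genes, Ehhadh and Hsd17b4, both lower in CDX2 lines. Ehhadh had 18.3, 19.1 and 14.99 CPM in CDX2 lines, below all HNF4A libraries (blocked log2 -0.95 ± 0.15, adjusted p = 0.0312). Hsd17b4 had 219.8, 233 and 256 CPM in HNF4A lines, above all CDX2 libraries (blocked log2 -0.60 ± 0.10, adjusted p = 0.0329). No member was called with any 1 number left out. Bdh1 did not separate the lines: the blocked difference was -0.29 ± 0.20 (adjusted p = 0.612).

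Among the other pathway genes the blocked fit called 13 of 101 between CDX2 and GFP lines (9 higher, 4 lower), 4 of 101 between HNF4A and GFP lines (3 higher, 1 lower) and 2 of 101 between CDX2 and HNF4A lines, both lower in CDX2. The same fit called 9.67%, 2.24% and 1.38% of all genes. The unblocked edgeR fit called 0 in each. It had 18, 11 and 12 of these pathway genes under an unadjusted p of 0.05, beside 1430, 733 and 659 of all 12720 genes. Esrra rose with CDX2 in the blocked fit (135, 129.6 and 129 CPM against 91.2, 101 and 77.4 in GFP lines, log2 0.56 ± 0.11, adjusted p = 0.0231). The greatest blocked differences from GFP were those of Cidec, a lipid droplet protein, with CDX2 (log2 3.01 ± 0.66, adjusted p = 0.0304) and of Mlxipl, the carbohydrate response factor ChREBP, with HNF4A (log2 2.73 ± 0.37, adjusted p = 0.0134). Between CDX2 and HNF4A lines Phyh and Crot, peroxisomal enzymes of branched and of medium-chain acids, were lower in CDX2 lines (blocked log2 -0.95 ± 0.18 and -0.71 ± 0.12).

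Library number itself went with several members. As a term over the 9 gastric libraries it was called for 5 of 28 members, against 34.1% of 12289 genes. Echs1, the short-chain enoyl-CoA hydratase, had 165, 168 and 108 CPM in CDX2 lines, 143, 149 and 93.0 CPM in GFP lines and 175, 167 and 106 CPM in HNF4A lines. Library 3 was the lowest in every group (log2 -0.65 against number 1, adjusted p = 0.00284 for the term). Etfa, the alpha subunit of electron transfer flavoprotein, had the same order, with library 3 lowest in each group (log2 -0.41, adjusted p = 0.0131).

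Bdh1 (log2 -0.86, adjusted p = 0.0183) and Acsl5 (log2 -0.48, adjusted p = 0.0336) were also lower in number 3 than in number 1. Ppargc1a went the other way, with number 3 above number 1 in each group (log2 1.20, adjusted p = 0.0182). Gif, the gastric intrinsic factor gene, was also lowest at number 1 in each group: it had 0.302, 22.4 and 333 CPM in CDX2 lines, 81.2, 389 and 939 CPM in GFP lines and 0.581, 61.0 and 407 CPM in HNF4A lines. The part of gastric cell composition in these differences was not tested.

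**Figure D3:**
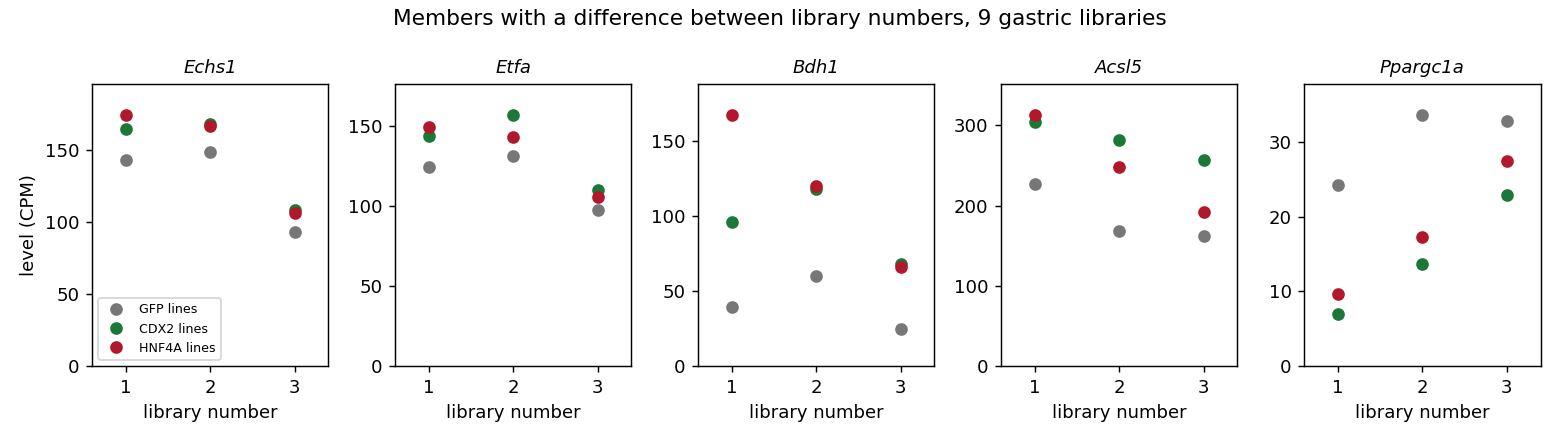
Level in CPM (vertical axes, linear from 0) of the 5 members called for library number, in the 9 gastric libraries by number; colours give the group. Echs1, Etfa and Bdh1 are lowest at number 3 in every group, and Ppargc1a is lowest at number 1 in every group.

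Small intestine was compared with the factor lines to see what remained apart, using the same intestinal libraries as above. Against CDX2 lines 2 members rose, Bdh1 (3.16-fold, log2 1.66 ± 0.46, adjusted p = 0.0454) and Ehhadh (2.04-fold, log2 1.03 ± 0.28, adjusted p = 0.0441), against 11.3% of all genes. Both calls were lost on leaving out any 1 of these 5 libraries. That left 0 members called, except that Pdk4 was called without small intestine library 2. Against HNF4A lines Acsl5 rose (log2 0.98 ± 0.24, adjusted p = 0.0301) and Hsd17b4 fell (log2 -1.01 ± 0.16, adjusted p = 0.00710), against 12.5% of all genes. This left 0 calls without small intestine library 1 and 1 without HNF4A library 2 (or 3). Other pathway genes numbered 9 called against CDX2 lines (5 higher, 4 lower) and 14 against HNF4A lines (3 higher, 11 lower), and both counts were 0 without small intestine library 1.

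In the enhancer experiment edgeR called 0 members and 0 of 12593 genes (0%) in each comparison, which were homozygous with wild type, heterozygous with wild type and homozygous with heterozygous organoids. Unadjusted p-values under 0.05 were found for 0, 2 and 0 members and for 578, 1125 and 33 genes. DESeq2 called 180, 327 and 1 genes and limma-voom 0 in each, and both called 0 members. The deletion is described by values.

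Member levels lay mostly lower in organoids with a deleted enhancer. In homozygous organoids 24 of the 28 log2 values were below 0 with a median of -0.18, and in heterozygous organoids 25 of 28 with a median of -0.24, while 49.8% and 50.5% of all genes were below 0. Both comparisons share the wild-type libraries. Between libraries of a group the members' median log2 level had a pooled SD of 0.235, near the size of these differences. On leaving out 1 library the median ran from -0.256 to -0.051 in homozygous and from -0.311 to -0.148 in heterozygous organoids. Members that vary together in a library are not independent, so the counts of signs carry no test. Without the 3 libraries highest in summed fibroblast markers, called fibroblast-rich here, the median was -0.08 (18 of 28 below 0) and -0.23 (23 of 28 below 0). The heterozygous values then rest on 1 library. Between homozygous and heterozygous organoids the median was 0.04, with 10 of 28 below 0.

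Bdh1 had 117, 114 and 143 CPM in wild type, 85.9, 62.2 and 54.1 CPM in heterozygous and 91.9, 110.4 and 50.6 CPM in homozygous organoids. Every library with a deletion lay below every wild-type library. The differences were -0.89 ± 0.28 on the log2 scale for heterozygous (adjusted p = 0.457) and -0.57 ± 0.28 for homozygous (adjusted p = 0.999), and -0.54 and -0.30 without the 3 fibroblast-rich libraries. Ehhadh had 44.0, 45.0 and 47.1 CPM in wild type, 26.8, 30.6 and 34.4 CPM in heterozygous and 33.1, 45.1 and 20.5 CPM in homozygous organoids, and only the heterozygous group lay apart from wild type (log2 -0.57 ± 0.25, adjusted p = 0.560).

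The tested genes of the shuttle and of hydration to thiolysis had log2 values below 0, and the dehydrogenases lay on both sides of 0. The 4 tested shuttle genes ran from -0.31 to -0.10 in homozygous and from -0.26 to -0.14 in heterozygous organoids, and the 5 genes of hydration to thiolysis from -0.43 to -0.13 and from -0.50 to -0.14. The 4 dehydrogenases ran from -0.22 to 0.026 and from -0.29 to 0.086. Cpt1a had 82.8, 160.2 and 154 CPM in wild type, 119, 86.9 and 153 CPM in heterozygous and 136, 80.4 and 154 CPM in homozygous organoids, a wide range within each group. Acadm, at 99.7, 123 and 96.7 CPM in wild type, 99.2, 90.6 and 149.6 CPM in heterozygous and 113, 101 and 103 CPM in homozygous organoids, overlapped in all groups (log2 0.086 ± 0.20 in heterozygous and -0.013 ± 0.20 in homozygous). Hadha had 225, 281 and 251 CPM in wild type, 218, 197 and 222 CPM in heterozygous and 255, 242 and 193 CPM in homozygous organoids. Ppara had 5.09 to 9.87 CPM, 3.25 to 7.83 CPM and 3.28 to 8.38 CPM in these groups, and Ppargc1a 11.6 to 23.9, 14.3 to 24.1 and 13.1 to 20.5 CPM.

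**Figure D4:**
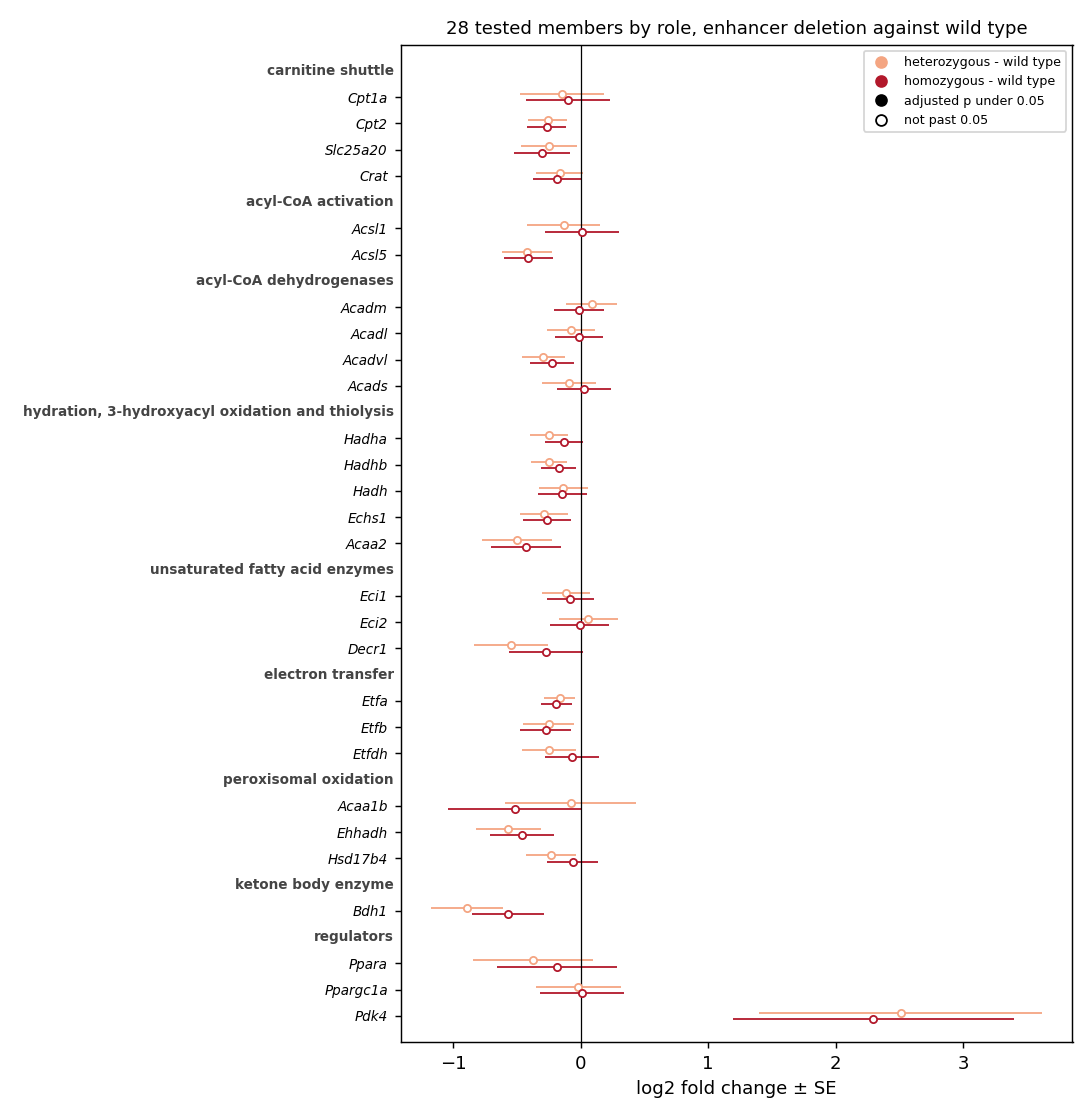
Log2 fold change ± SE (horizontal axis) against wild type of the 28 tested members by role, for heterozygous and homozygous enhancer deletion; no point has an adjusted p under 0.05. Most points lie a little left of 0, Bdh1 lies farthest left (-0.89 and -0.57) and Pdk4 alone lies far right (2.51 and 2.29).

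Pdk4 had the greatest differences among the members. It had 1.08, 3.25 and 2.04 CPM in wild type, 6.50, 7.60 and 22.0 CPM in heterozygous and 2.99, 0.974 and 27.3 CPM in homozygous organoids. The heterozygous group lay above wild type, and in the homozygous group 1 library lay far above the others. The differences were 2.51 ± 1.11 (adjusted p = 0.559) and 2.29 ± 1.10 (adjusted p = 0.999), and the latter was -0.085 without homozygous library 3.

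In both groups with a deletion the library highest in Pdk4 was also the highest in the summed level of 12 fibroblast markers, while the other libraries did not follow that order throughout. The sum was 3.18 to 6.74 CPM in wild type, 100.1, 831 and 1264 CPM in heterozygous and 36.2, 99.2 and 1068 CPM in homozygous organoids, and 6 of 6 tested markers had an unadjusted p under 0.05 in the homozygous comparison while none was called. The collagen gene Col1a1 was at most 2.29 CPM in wild type and reached 319.7 CPM with the deletion. The other markers of the list did not pass the filter. Dcn, Lum, Acta2, Thy1 and Postn had means of 0.275 CPM or less in both groups with a deletion. Dcn and Acta2 were no lower in wild type, with means of 0.333 and 0.350 CPM. Col1a2 had means of 2.39 CPM in heterozygous and 0.306 CPM in homozygous organoids. The sum thus rests on the tested part of the list. With heterozygous libraries 2 and 3 and homozygous library 3 left out, the Pdk4 difference was 1.62 ± 0.78 in heterozygous and -0.079 ± 0.69 in homozygous organoids. The lone heterozygous library, at 6.50 CPM, is assumed there to vary like the other groups. The 15 enterocyte markers summed to 1308 to 2013 CPM in wild type, 1252 to 1568 CPM in heterozygous and 1109 to 1825 CPM in homozygous organoids. This sum follows its most abundant genes, and single markers went both ways. Mean Apob was 430, 553 and 537 CPM in wild type, heterozygous and homozygous organoids, and mean Alpi 24.2, 1.74 and 0.364 CPM. In the same order Cdh17 had means of 78.6, 32.3 and 15.9 CPM, and Slc5a1 13.6, 2.66 and 1.36 CPM. None of these markers was called by edgeR. The part of fibroblast or enterocyte transcripts in the members' values was not tested.

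**Figure D5:**
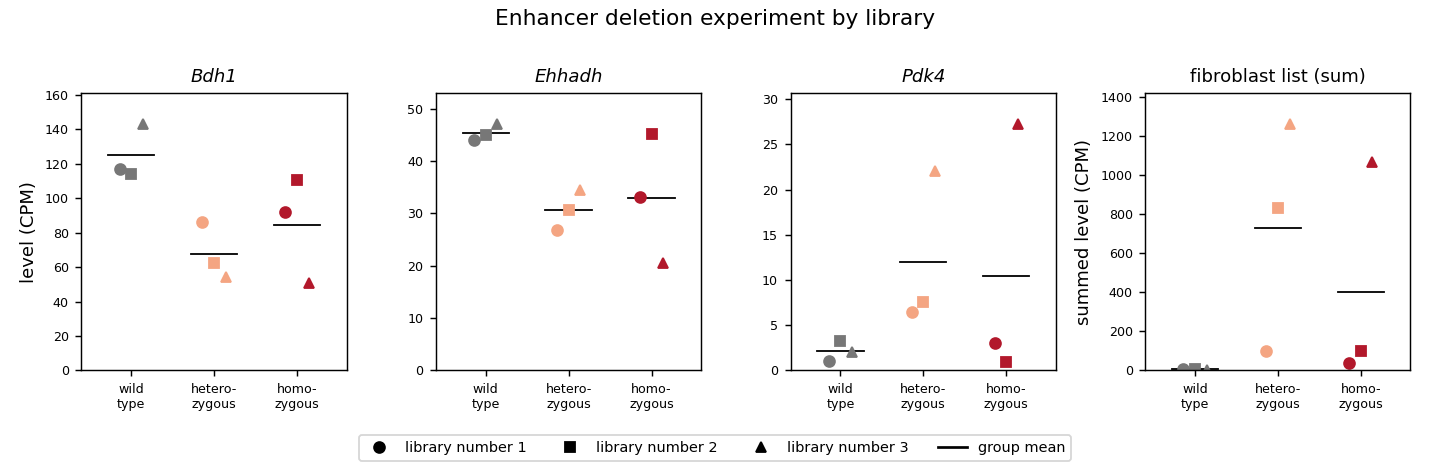
Level in CPM (vertical axes, linear from 0) of Bdh1, Ehhadh and Pdk4 and the summed level of 12 fibroblast markers, per library of the enhancer experiment; symbols give the library number and lines the group mean. Bdh1 is lower in all 6 libraries with a deletion than in wild type, and the libraries highest in Pdk4 (22.0 and 27.3) are those highest in fibroblast markers in their group.

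Of the other pathway genes 106 were tested in the enhancer experiment and 0 were called by edgeR against wild type. The unadjusted p was under 0.05 for 3 in homozygous and 6 in heterozygous organoids, beside 578 and 1125 of all 12593 genes.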

How the data were processed

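RNA was measured by poly-A RNA-seq in 20 libraries. The authors deposited 1 table of raw counts per gene symbol. Per the submitters' processing notes STAR, Bowtie2, Cell Ranger, mm10 and hg19 are named, with no role. The counting program and strand setting are not stated there. A column named Del was taken as the homozygous deletion because heterozygous columns are named apart. A source field of the gastric lines reads small intestine; titles and the tissue tag were followed.

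The experiments were fitted separately in R 4.3.3 using the quasi-likelihood test of edgeR 4.0.16 ( robust, TMM, filterByExpr minimum count 10 and total 15). SE is the log2 fold change over the square root of F. DESeq2 1.42.0 and limma 3.58.1 voom were alternatives. Deviations from group means of same-numbered gastric libraries correlated across genes at 0.336 to 0.751 (9 pairs), so line number was also a block; pairs with small intestine (-0.088 to 0.118) and with enhancer wild type (-0.290 to 0.244) did not pair, while 3 heterozygous and homozygous pairs did (0.188 to 0.530). Chi-square per degree of freedom between replicates was 21.7 to 84.1, and p-values measure the spread between these libraries, which may be technical. Counting intervals cover counting error only. Scripts were tested on simulated data. Promoters and positions came from RefSeq tables of GRCm38.p6, where all 29 symbols matched.

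The members and lists were chosen with earlier results of these data known. Every library is given for members called against GFP lines and for 10 named by role; Oxct1, Gif, Echs1 and Etfa were named after their values were seen, and other pathway genes by role or as the called genes of greatest difference. Some pathway genes are not reported here.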

Additional observations from a re-analysis of the deposited data

How the results depend on the processing

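Counts of called members depended on the tool, the block and single libraries. For CDX2 against GFP lines (0) DESeq2 gave 1, the block over all libraries 3 and over the 9 gastric libraries 4, and leaving out libraries 0 to 3. For HNF4A against GFP lines (0) these were 2, 2 and 2, and 0 to 1. For CDX2 against HNF4A lines (0) DESeq2 gave 1 and the 9-library replicate block 2. For small intestine against GFP lines (9) a fit of only the 2 groups gave 5 and leaving out libraries 3 to 8, with the median from -0.16 to 0.26. Against CDX2 lines (2) the count was 1 without a filter, 7 with DESeq2, 0 with limma-voom, 0 with only the 2 groups, 4 with the replicate block and 0 to 1 leaving out libraries. Against HNF4A lines (2) it was 4 with DESeq2, 1 with only the 2 groups, 4 with the block and 0 to 3 leaving out libraries. The block over all libraries ties small intestine libraries to gastric libraries of the same number, with which they did not pair. Over all genes DESeq2 called 2675 between small intestine and CDX2 lines and 2791 between small intestine and HNF4A lines, where edgeR called 1437 and 1585. The cause of the shifts in member counts was not tested.

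RLE size factors changed none of 51 single values in call or sign. Pdk4 in homozygous organoids changed sign to -0.085 without homozygous library 3 and to -0.079 without the 3 fibroblast-rich libraries, and ran from -0.085 to 2.84 leaving out libraries. Of 211 other member values, 108 changed sign in some setting, each under 1 SE (0.964 at most) in the test as reported. In the enhancer comparisons 0 members were called by edgeR, DESeq2 or limma-voom, with or without the replicate block or any left-out library. The fits without 1 line number and without the fibroblast-rich libraries were chosen after seeing the data. The self-test recovered 16% of 2-fold changes between HNF4A and GFP lines with 6 false calls in the 11 libraries without a block, and 71% with 14 false calls in the 9 gastric libraries with it; both the libraries and the block differ. It recovered 5% of 2-fold and 62% of 4-fold changes between small intestine and GFP lines, and 18% and 77% between homozygous and wild type. Each simulation set the groups equal and changed only 100 genes by 2-fold and 100 by 4-fold. The adjusted threshold is stricter where few genes differ. Since 27.1% of genes were called between small intestine and GFP lines, the 5% and 62% do not give the power of that comparison.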

Other observations

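Fatty acid synthesis and pyruvate dehydrogenase genes were also followed in small intestine against GFP gastric lines. Of 16 tested synthesis genes 5 rose and 2 fell, with a median log2 fold change of 0.69, beside 14.2% and 12.9% of all genes. Mlxipl, the ChREBP factor that drives lipogenesis from sugar, had 3.31, 5.63 and 2.08 CPM in GFP lines and 42.6 and 43.8 CPM in small intestine, and rose (log2 3.54 ± 0.59, edgeR adjusted p = 0.00397). Acacb, the acetyl-CoA carboxylase whose product malonyl-CoA blocks the carnitine shuttle, fell (log2 -3.03 ± 0.90, adjusted p = 0.0325), and Acaca, its cytosolic relative, rose (log2 0.96 ± 0.27, adjusted p = 0.0273). Of 10 pyruvate dehydrogenase genes 3 rose and 0 fell by the same test. Txnip, an inhibitor of glucose uptake, fell (log2 -1.99 ± 0.41, adjusted p = 0.00795). These genes were named after their values were seen.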
